A study of Mus musculus with 18 samples.

Results

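The epithelial chemokines, cytokines and IgA transporter of the mouse colon crypt were examined in RNA-Seq counts from 18 libraries. The 10 members were named by symbol: the transporter Pigr, the chemokines Ccl20, Ccl25, Ccl28, Cxcl1, Cxcl16 and Cx3cl1, and the cytokines Il18, Il33 and Tslp. Of these, 9 had a row among the 24047 gene rows of the count table, of which 18217 rows had at least 1 count, and Ccl28 was not analysed here. The study asked how the endoplasmic reticulum stress sensor ERN2 (IRE1β) and gut microbes shape the colon epithelium. The mice were C57BL/6, and every library came from crypts released from colon with EDTA and passed through strainers, so no cell type was sorted. GF-WT and GF-Ern2-/- mice had been rederived germ free, COLONIZED-WT and COLONIZED-Ern2-/- mice were germ-free mice gavaged with a cecal microbiota from CONV-WT donors and examined 14 days later, and CONV-WT and CONV-Ern2-/- mice were raised with a conventional microbiota. Each of the 6 groups had 3 libraries. Age and sex are not in the labels, and nothing in them says that replicates came from separate mice, so p-values measure the spread between these libraries.

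Epithelial cells speak to the immune system through secreted and shed proteins of several families. The polymeric immunoglobulin receptor (Pigr) carries dimeric IgA across the epithelium and is released with it into the lumen. Chemokines set up gradients that draw leukocytes bearing the matching receptor: CCL20 draws cells with CCR6 into lymphoid follicles, CCL25 and CCL28 draw cells with CCR9 and CCR10, CXCL1 draws neutrophils through CXCR2, and CXCL16 and CX3CL1 are membrane-anchored ligands of CXCR6 and CX3CR1 that ADAM proteases shed. IL-18 and IL-33 belong to the IL-1 family. IL-18 is stored as a precursor that caspase-1 cleaves in inflammasomes, IL-33 is released from damaged cells, and TSLP acts with IL-33 in type 2 responses.

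Library totals ran from 5865619 to 23154481 counts. The shallowest were CONV-Ern2-/- replicates 3 and 2 and CONV-WT replicate 3, so counting error is largest there. Ern2, the targeted gene, had normalized counts from 1909 to 3100 in WT libraries and from 386 to 3336 in those labelled Ern2-/-. In GF-Ern2-/- replicates 1 and 3 it was at 2877 and 3336, above every GF-WT library, so "Ern2-/-" below means the label. Counts per gene do not show whether the counted transcript is intact, so they do not test the genotype. In normalized counts summed per library, 10 epithelial markers reached 166319 to 250411, 16 immune markers 119 to 432 and 5 plasma cell markers at most 17.8. The neutrophil markers S100a8, S100a9 and Cxcr2 were at 0 in all 18 libraries. In such bulk samples fewer cells of a type and less RNA per cell cannot be told apart. Female and male expression patterns were unequally spread: out of 3 libraries a group, the Y-linked pattern was seen in 0 for GF-WT, 1 for CONV-WT, 2 each for COLONIZED-WT, GF-Ern2-/- and COLONIZED-Ern2-/-, and 3 for CONV-Ern2-/-.

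The promoter windows of 3 members are shown because the results below turn on Il18 and Ccl20, while Pigr is the most abundant member. Each is the 250 bases before the RefSeq transcript start on the plus strand of build GRCm38.p6. Capitals mark every match to 4 letter patterns searched on both strands: a broad NF-kB pattern (GGG and CC with 5 bases of any kind between them), a narrower one (GGGAA and CC with 3 bases between), an interferon response pattern (GAAA and GAAA with 2 bases between) and the XBP1 core (ACGTG). The narrower pattern lies within the broad one and was added after the broad matches were seen.
Il18, chr9:50554450-50554699: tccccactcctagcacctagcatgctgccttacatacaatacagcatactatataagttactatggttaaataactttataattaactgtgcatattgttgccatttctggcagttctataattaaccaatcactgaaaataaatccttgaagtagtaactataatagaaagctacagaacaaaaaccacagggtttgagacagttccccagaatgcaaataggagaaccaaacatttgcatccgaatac
Ccl20, chr1:83116516-83116765: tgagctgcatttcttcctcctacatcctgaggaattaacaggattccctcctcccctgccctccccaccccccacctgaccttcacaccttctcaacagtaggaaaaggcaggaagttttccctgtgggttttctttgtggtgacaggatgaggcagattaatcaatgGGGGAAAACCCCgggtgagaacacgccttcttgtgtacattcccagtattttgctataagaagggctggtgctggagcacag
Pigr, chr1:130826434-130826683: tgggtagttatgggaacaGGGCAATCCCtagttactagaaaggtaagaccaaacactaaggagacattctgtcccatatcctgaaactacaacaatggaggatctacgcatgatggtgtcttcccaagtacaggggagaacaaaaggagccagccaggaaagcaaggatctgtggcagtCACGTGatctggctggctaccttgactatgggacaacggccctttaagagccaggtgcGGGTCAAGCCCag
The Ccl20 window held overlapping NF-kB matches between 82 and 71 bases before the start, among them 1 match to the narrower pattern. In the Pigr window there were broad NF-kB matches at 232 to 223 and at 13 to 3 bases before the start, and the palindrome CACGTG, which holds the XBP1 core on both strands. The Il18 window, like those of Cx3cl1, Ccl25 and Il33, held none of these letters. That of Cxcl1 held 4 matches to the broad NF-kB pattern and 3 to the narrower one, over both strands, and 1 to the XBP1 core. Over 32851 RefSeq windows of this length, 45.8% held the broad pattern, 4.94% the narrower one, 2.98% the interferon pattern and 16.6% the XBP1 core. A match describes letters only and shows no binding.

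Il18 was the member with the clearest difference between germ-free and microbe-bearing groups: it was called lower in CONV-WT than in GF-WT and in COLONIZED-Ern2-/- than in GF-Ern2-/-. Ccl20 was called lower in the second of these comparisons, and no member was called higher anywhere. A call is a Benjamini-Hochberg adjusted p under 0.01 in the DESeq2 Wald test over all genes, fitted on the 6 libraries of a comparison. In CONV-WT against GF-WT, 1 of 8 members tested was called, where 10.7% of all genes tested were called and 5.14% were called lower, and 2 members had an unadjusted p under 0.05, as had 24.9% of genes. In COLONIZED-Ern2-/- against GF-Ern2-/-, 2 of 8 members were called, where 7.22% of genes were called and 3.60% were called lower, and 2 members were under 0.05 unadjusted, as were 20.4% of genes. DESeq2 called 0 members in the other 4 comparisons of microbial states. These were COLONIZED-WT against GF-WT (0 of 8 members, 17.9% of genes called; 1 member and 31.2% of genes under 0.05 unadjusted) and CONV-Ern2-/- against GF-Ern2-/- (0 of 7, 4.36%; 2 members, 15.7%). The rest were CONV-WT against COLONIZED-WT (0 of 8, 0.117%; 1 member, 7.26%) and CONV-Ern2-/- against COLONIZED-Ern2-/- (0 of 7, 8.37%; 1 member, 23.7%). Between the genotype labels DESeq2 called 0 of 7 members in CONV (2.89% of genes called), 0 of 9 in GF (0.0349%) and 0 of 6 in COLONIZED (1.36%), with 1, 1 and 3 members under 0.05 unadjusted beside 13.6%, 1.48% and 16.2% of genes. It called 0 of 7 members in the CONV interaction of genotype and microbes (0.178% of genes called) and 0 of 9 in the COLONIZED one (0.0280%). In these 0 and 2 members and 1181 and 1030 genes were under 0.05 unadjusted. An adjusted p was given to 12938 and 17884 genes, and more genes may hold an unadjusted one. The quasi-likelihood test of edgeR called 0 members in all 9 comparisons at the same threshold, where it called between 0 and 630 genes, and gave 1 or 2 members an unadjusted p under 0.05 in each.

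Apart from the tests, the ranges of the normalized counts of a pair of groups can be set side by side. Il18 did not overlap in 4 comparisons, lower in the first group in each: CONV-WT against GF-WT (18.0% of genes do so in that direction), CONV-Ern2-/- against GF-Ern2-/- (13.1%), COLONIZED-Ern2-/- against GF-Ern2-/- (16.8%) and CONV-WT against COLONIZED-WT (7.83%). Cx3cl1 did so in CONV-WT against GF-WT and COLONIZED-Ern2-/- against GF-Ern2-/-, and Ccl20 in the latter. In COLONIZED-Ern2-/- against COLONIZED-WT, Pigr was lower without overlap (13.9% of genes), and Cxcl16 and Il33 were higher (16.2%). Il33 was also higher in COLONIZED-Ern2-/- than in GF-Ern2-/- (16.4%), and in CONV-Ern2-/- against COLONIZED-Ern2-/- Ccl20 was higher (17.6%) and Tslp lower (18.0%). With 9 members, 1 or 2 without overlap in a direction is near the share over all genes, and 3 occurred in 1 comparison.

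**Figure D1:**
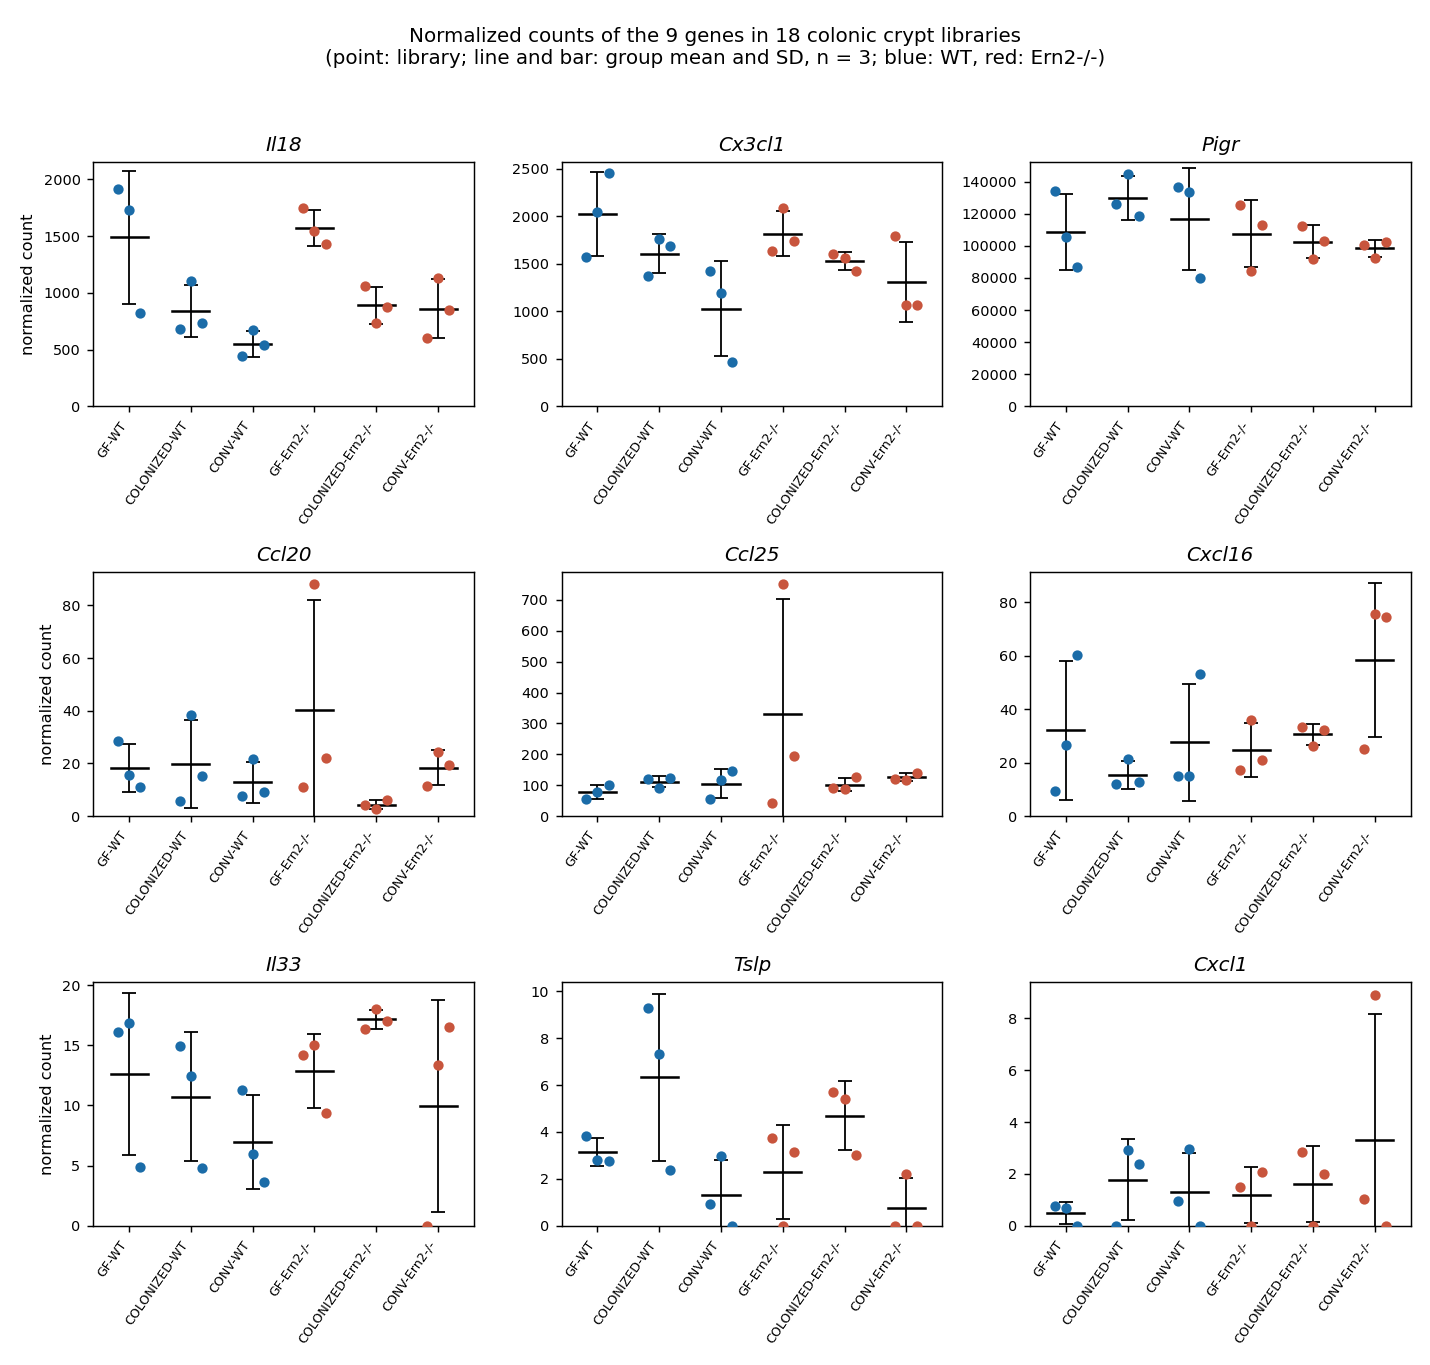
Normalized counts (y axes, linear, from 0) of the 9 members with a row in each of the 18 libraries, by group (x axis); points are libraries, bars the mean and SD of 3 libraries, cut at 0. Il18 lies between 1431 and 1747 in GF-Ern2-/- and between 442 and 672 in CONV-WT, and GF-Ern2-/- replicate 2 stands apart for Ccl25 at 751 and for Ccl20 at 88.2.

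Il18 lies at chr9:50554827-50581840 on the plus strand (GRCm38, GENCODE M21). Normalized to 1 set of size factors over all 18 libraries, its counts in replicates 1, 2 and 3 of GF-WT were 1912, 1725 and 824, COLONIZED-WT stood at 682, 1100 and 733, and CONV-WT stood at 442, 672 and 541. GF-Ern2-/- stood at 1747, 1540 and 1431, COLONIZED-Ern2-/- at 1058, 736 and 873, and CONV-Ern2-/- at 605, 1126 and 853. All 3 GF-Ern2-/- libraries lay above every library of the microbe-bearing groups, whereas GF-WT replicate 3 lay within the range of COLONIZED-WT. Group means (± SD, n = 3) were 1487 ± 582 in GF-WT, 838 ± 228 in COLONIZED-WT and 551 ± 115 in CONV-WT. For the Ern2-/- label they were 1573 ± 161, 889 ± 162 and 861 ± 261 in the same order of microbial states. In the order of means, COLONIZED-WT and CONV-WT, at the low end, were the only neighbours whose libraries did not overlap.

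Fold changes come from the fit of each comparison and so differ slightly from ratios of these means. In CONV-WT Il18 fell by 1.44 on the log2 scale against GF-WT (SE 0.37, 95% interval −2.17 to −0.71, adjusted p 0.00158 with DESeq2). On the linear scale it fell by 63.2%. By edgeR the same difference was −1.42 with an adjusted p of 0.0486. The DESeq2 call rested on few libraries: it was kept in 3 of the 6 fits that left out 1 library and lost without GF-WT replicate 1 (adjusted p 0.0328), GF-WT replicate 2 (0.0397) or CONV-WT replicate 1 (0.0202). It was also lost with sex as a covariate (−1.31, adjusted p 0.0197) and with the log2 library total as one (−1.62, 0.0248). Library totals were 19255177 to 23154481 in GF-WT and 8198204 to 15877968 in CONV-WT, without overlap. The library total fit therefore cannot reliably separate depth from group. In COLONIZED-Ern2-/- Il18 fell by 0.83 against GF-Ern2-/- (SE 0.21, 95% interval −1.23 to −0.42, adjusted p 0.00158 with DESeq2 and 0.0359 with edgeR), and on the linear scale it fell by 43.6%. This call was lost without GF-Ern2-/- replicate 1 (0.0244), COLONIZED-Ern2-/- replicate 2 (0.0198) or replicate 3 (0.0273), and in 1 fit of all 18 libraries (0.0498).

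The other microbial comparisons of Il18 were not called. COLONIZED-WT against GF-WT gave −0.82 (SE 0.30, adjusted p 0.0249 with DESeq2, 0.0956 with edgeR), and without GF-WT replicate 3 it gave −1.10 with a DESeq2 adjusted p of 2.58e-05. CONV-Ern2-/- against GF-Ern2-/- gave −0.88 (SE 0.28, adjusted p 0.0262 with DESeq2, 0.110 with edgeR), and was called without CONV-Ern2-/- replicate 2 at −1.12 (adjusted p 0.00198). CONV-WT against COLONIZED-WT had ranges that did not overlap, and its log2 fold change was −0.61 (SE 0.28, DESeq2 adjusted p 0.492). CONV-Ern2-/- against COLONIZED-Ern2-/- gave −0.047 (SE 0.26, DESeq2 adjusted p 0.928), with values from −0.29 to 0.16 when 1 library was left out.

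Between genotype labels, Il18 differed by 0.09 on the log2 scale in GF (95% interval −0.53 to 0.70), by 0.08 in COLONIZED (−0.34 to 0.50) and by 0.64 in CONV (0.02 to 1.26, unadjusted p 0.0419, DESeq2 adjusted p 0.272). The genotype-by-microbes interaction compares the effect of microbes under the 2 labels. For CONV and GF it was 0.56 (SE 0.47, DESeq2 adjusted p 0.831) and for COLONIZED and GF −0.0017 (SE 0.41). The 95% interval of the latter, −0.81 to 0.80, corresponds to a ratio of responses from 0.572-fold to 1.74-fold.

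**Figure D2:**
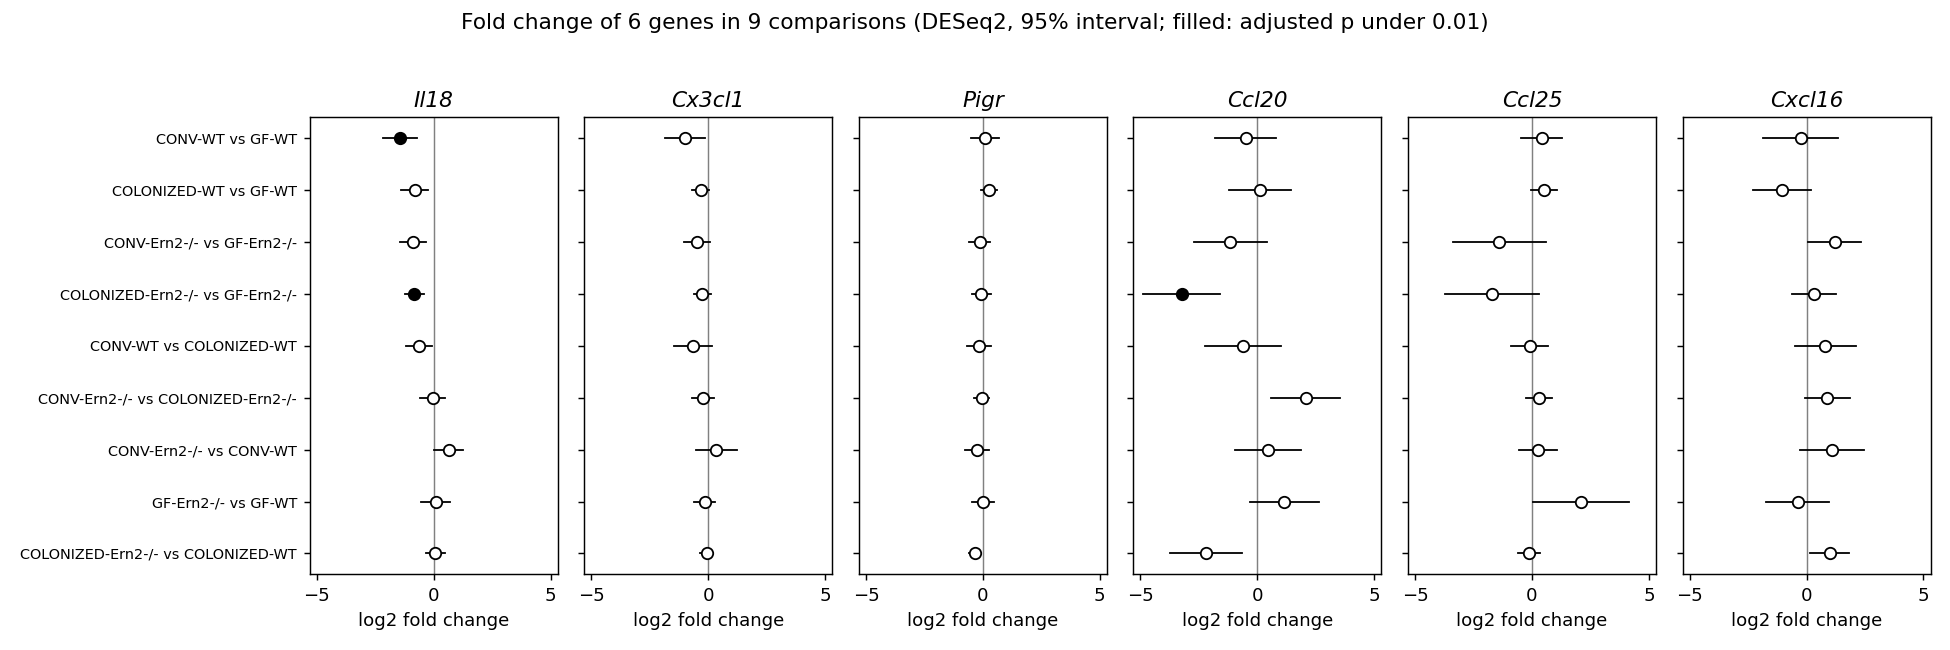
Log2 fold changes (x axis) of 6 members in the 9 comparisons (y axis) with 95% intervals from DESeq2; filled points are called at an adjusted p under 0.01. The filled points are the 2 of Il18 and the 1 of Ccl20, while the intervals of Pigr stay between −0.77 and 0.68.

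Other measurements moved with Il18, and their part in the result was not tested. Some markers of surface colonocytes also fell, 2 of 6 in CONV-WT against GF-WT (Car4 at −3.11 on the log2 scale and Slc26a3) and 3 of 6 in COLONIZED-Ern2-/- against GF-Ern2-/- (Aqp8 at −4.57, Car4 at −2.15 and Slc26a3). Car1, of the same list, was not called. Its mean was higher in CONV-WT than in GF-WT (115056 against 62246 normalized counts) only through CONV-WT replicate 3. The CONV-WT libraries were at 22612, 53108 and 269449, and those of GF-WT at 13732, 72496 and 100509. The summed colonocyte markers overlapped in both comparisons, at 33853 to 156455 in GF-WT, 28994 to 293149 in CONV-WT, 42545 to 435931 in GF-Ern2-/- and 90823 to 168949 in COLONIZED-Ern2-/-. Tuft cell markers rose, 3 of 4 in the first comparison and 1 of 4 in the second, with sums of 832 to 1079 in GF-WT, 1209 to 3891 in CONV-WT, 823 to 1723 in GF-Ern2-/- and 1809 to 3525 in COLONIZED-Ern2-/-. Of 6 goblet cell markers 3 were called in the first comparison (Spink4 at 3.42 and Spdef at 1.79, with Tff3 at −1.59) and 4 in the second (Agr2 at 1.54, Muc2 at 1.75 and Spdef at 1.18, with Tff3 at −1.49). Their sums overlapped in both, at 138135 to 179747 in GF-WT, 65998 to 450098 in CONV-WT, 65156 to 135720 in GF-Ern2-/- and 128946 to 242671 in COLONIZED-Ern2-/-. Of 14 mesenchymal markers 12 were tested in the first and 9 in the second. There 3 were called in the first (Des and Acta2 higher, Pdgfrb lower) and 1 in the second (Pdgfrb lower). CONV-WT replicate 3 was far the highest for both Des (5.66, 4.94 and 69.4) and Acta2 (2.83, 16.8 and 67.6). Their calls were kept in 2 and 1 of 6 fits without 1 library, and edgeR tested neither. Of 6 endothelial markers, 3 of them tested in each comparison, 0 were called in the first and 1 in the second (Pecam1 at −2.24). Their sums in the second, of 100.3 to 141 in GF-Ern2-/- and 45.0 to 75.5 in COLONIZED-Ern2-/-, did not overlap. Of 5 plasma cell markers 2 were tested in the first comparison and 0 in the second, and 0 were called. Their sums were 2.08 to 4.20 in GF-WT and 8.49 to 13.8 in CONV-WT. Of 6 glial markers Erbb3 was called lower in both, while Sox10, which defines glia, was at 0 in 17 libraries. Bco2, a carotenoid-cleaving enzyme whose gene overlaps Il18 on the other strand, fell by 1.19 in CONV-WT against GF-WT and by 1.22 in COLONIZED-Ern2-/- against GF-Ern2-/- (DESeq2 adjusted p 0.000127 and 3.90e-05). The annotated exons of the 2 genes share 0 bases, and the strand setting of the counting is not given in the sources used here.

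Partners of IL-18 were described from a written list of 27 genes of the IL-1 family, other epithelial cytokines and the inflammasome, of which 24 had a row. In CONV-WT against GF-WT, 7 of 17 tested were called, 2 higher and 5 lower, beside 10.7% of all genes called and 5.14% called lower. Il18bp, the secreted protein that binds and blocks IL-18, was at 98.3, 63.7 and 74.3 in GF-WT and at 23.6, 15.8 and 12.8 in CONV-WT, and fell by 2.15 (SE 0.40, adjusted p 4.21e-06 with DESeq2, 0.0239 with edgeR). Nlrp1b, an inflammasome sensor, was at 411, 438 and 560 in GF-WT and at 179, 89.9 and 203 in CONV-WT. It fell by 1.59 there (DESeq2 adjusted p 0.000193), a call lost without GF-WT replicate 3 (0.0127), and by 1.17 in COLONIZED-WT and 1.03 in COLONIZED-Ern2-/- against their GF groups, calls that every fit without 1 library kept. Il34, a ligand of the macrophage growth factor receptor, was lower than in GF at −2.16 for CONV-WT and −2.03 for CONV-Ern2-/-, the latter a call lost without GF-Ern2-/- replicate 1 (0.0214).

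Tnf and Tgfb1 went the other way. Tnf, the inflammatory cytokine, was at 0.701 to 4.86 in GF-WT and at 19.8 to 27.8 in COLONIZED-WT, and rose by 3.07 (DESeq2 adjusted p 8.04e-05, edgeR 0.00883). Tgfb1, a cytokine that directs B cells to IgA, was at 50.7, 35.7 and 14.6 in GF-WT and at 202, 154 and 162 in COLONIZED-WT. It was called higher in all 4 comparisons with a GF group, by 2.38 in COLONIZED-WT and 2.72 in COLONIZED-Ern2-/-, where edgeR also passed 0.01 (0.00875 and 0.00863). In CONV-WT it rose by 2.05, which was lost without CONV-WT replicate 1 (0.0104) or 2 (0.0119). In CONV-Ern2-/- it rose by 1.95, which was lost without GF-Ern2-/- replicate 3 or CONV-Ern2-/- replicate 1 or 3. Cell type markers moved in COLONIZED-WT against GF-WT too, and their part in these results was not tested. Tuft cell markers were called higher, 4 of 4, with sums of 832 to 1079 in GF-WT and 1736 to 3137 in COLONIZED-WT. Of 6 goblet cell markers 5 were called (Muc2 at 1.55, Spink4 at 2.62, Agr2 at 1.54 and Spdef at 1.37, with Tff3 at −1.20), with sums of 138135 to 179747 and 252485 to 323410. Of 6 colonocyte markers Car4 was called, at −2.51. In CONV-Ern2-/- against GF-Ern2-/- the tuft cell markers Dclk1 (1.51) and Avil (1.24) and the mesenchymal marker Col3a1 (3.14) were called higher. The goblet cell markers Fcgbp (−1.71) and Tff3 (−1.76) and the mesenchymal marker Pdgfrb (−1.37) were called lower there. Colonocyte markers, 5 tested, had 0 calls, and the part of these lists was not tested either. The inflammasome components Casp1 (1604 to 4193 normalized counts), Pycard (2082 to 4459) and Nlrp6 (4001 to 8907) were abundant in every library. Nlrp6 was called higher in COLONIZED-WT than in GF-WT by 0.37 (adjusted p 0.00231 with DESeq2, 0.0298 with edgeR), a call kept in 4 of 6 fits without 1 library.

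**Figure D3:**
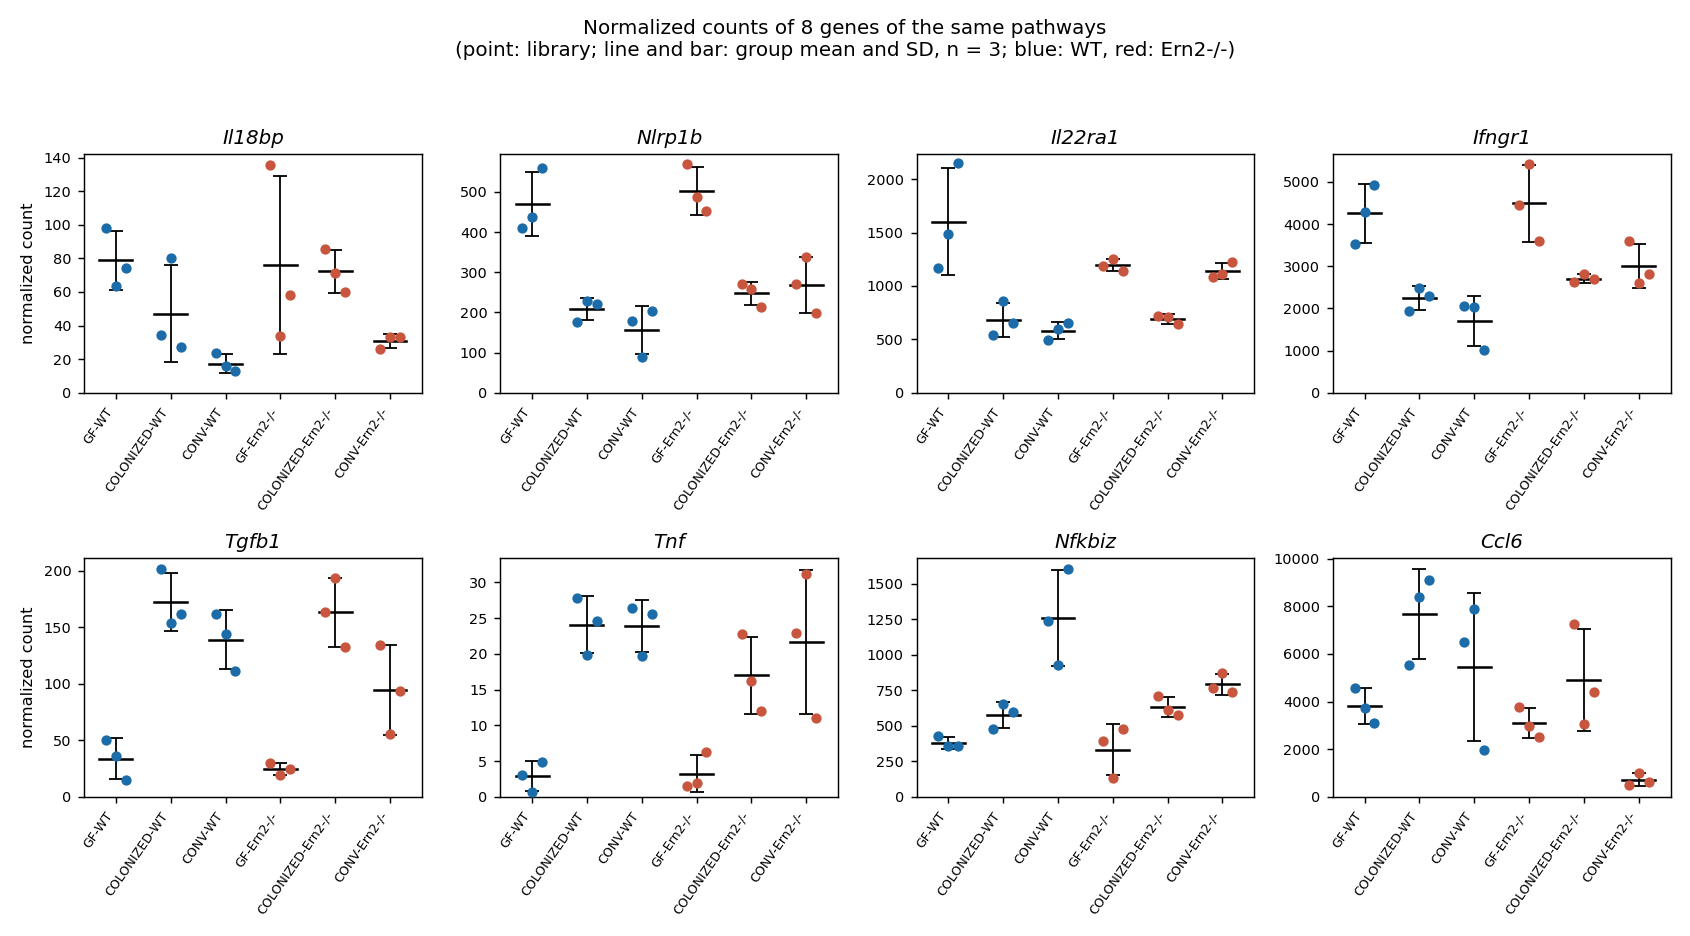
Normalized counts (y axes) of 8 list genes in each library by group (x axis), with the mean and SD of 3 libraries. Tgfb1 is at 14.6 to 50.7 in GF-WT against 154 to 202 in COLONIZED-WT, and Ccl6 at 493 to 1015 in CONV-Ern2-/- against 1952 to 7897 in CONV-WT.

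Ccl20 (chr1:83116766-83119167, plus strand), the ligand of CCR6, was a low count gene. The WT libraries had normalized counts of 28.4, 15.4 and 11.1 without microbes, 5.70, 38.2 and 15.1 after colonization and 7.54, 21.7 and 9.13 when conventionally raised. GF-Ern2-/- stood at 11.2, 88.2 and 21.9, COLONIZED-Ern2-/- at 4.27, 2.70 and 6.02, and CONV-Ern2-/- at 11.5, 24.4 and 19.3. COLONIZED-Ern2-/- was the lowest group and did not overlap CONV-WT, the next in order. In COLONIZED-Ern2-/- against GF-Ern2-/- Ccl20 fell by 3.24 (SE 0.85, 95% interval −4.90 to −1.58, adjusted p 0.00253 with DESeq2, 0.0676 with edgeR), and on the linear scale it fell by 89.4%. The COLONIZED-Ern2-/- values rest on 6, 3 and 6 counts. Without GF-Ern2-/- replicate 2, the highest library and the one with by far the highest summed colonocyte markers of its group, the difference was −1.92 (adjusted p 0.103), and the call was also lost without any 1 COLONIZED-Ern2-/- library (0.0138 to 0.0472). CONV-Ern2-/- against COLONIZED-Ern2-/- gave 2.06 (SE 0.75, adjusted p 0.0411 with DESeq2, 0.0474 with edgeR), also with no overlap. COLONIZED-Ern2-/- against COLONIZED-WT gave −2.20 (SE 0.79, unadjusted p 0.00545, filtered from adjustment), and the COLONIZED interaction was −3.34 (SE 1.15, unadjusted p 0.00369, DESeq2 adjusted p 0.844).

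Ccl25 (chr8:4325210-4360020, plus strand), the CCR9 ligand best known from small intestine and thymus, had normalized counts of 54.7 to 146 in the 15 libraries outside GF-Ern2-/-. In GF-Ern2-/- the 3 libraries were at 43.3, 751 and 196, which held both the lowest and the highest value of all 18. GF-Ern2-/- against GF-WT gave 2.10 (SE 1.04, DESeq2 adjusted p 1.00), and 0.60 without GF-Ern2-/- replicate 2. The same library had the lowest Ern2 count and the highest Ccl20 count of its group, and its summed colonocyte markers were 435931 against 42545 and 67863 in replicates 1 and 3, whose part in the result was not tested. Without GF-Ern2-/- replicate 1 instead, Ccl25 was called at 2.62 in that comparison (adjusted p 0.00383) and at −2.22 in COLONIZED-Ern2-/- against GF-Ern2-/- (adjusted p 0.000617), where all 6 libraries gave −1.70 (SE 1.03, adjusted p 0.302). Of its 7445 exon bases 204 are shared with Elavl1 on the other strand.

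Pigr (chr1:130826684-130852249, plus strand) ranked 4 among all genes by mean count and made up 0.484% to 0.966% of all counts in a library. Normalized counts ran from 80257 in CONV-WT replicate 3 to 144979 in COLONIZED-WT replicate 2. Group means were 108717 ± 23893 in GF-WT, 129890 ± 13676 in COLONIZED-WT and 116947 ± 31809 in CONV-WT. With the Ern2-/- label they were 107689 ± 21015 in GF, 102534 ± 10224 in COLONIZED and 98425 ± 5422 in CONV (SD, n = 3). In the order of means every group overlapped its neighbour. All 9 fold changes lay between −0.35 and 0.27, and their 95% intervals stayed within 0.588-fold and 1.60-fold. The lowest adjusted p was 0.0867 with DESeq2, for COLONIZED-Ern2-/- against COLONIZED-WT (−0.35, SE 0.13, ranges 92088 to 112519 and 118310 to 144979). Plasma cells, the source of the IgA that Pigr carries, were scarce in these preparations: Igj, the joining chain gene, was at 0 to 17.8 normalized counts, and Tnfrsf17 and Fcrl5 at 0 in all 18 libraries. Of 9 written genes of IgA induction 7 had a row, and the calls were Tgfb1, above, and Aldh1a1, a retinoic acid enzyme. Aldh1a1 was called higher in CONV-Ern2-/- than in COLONIZED-Ern2-/- by 1.16. This call was lost without COLONIZED-Ern2-/- replicate 1 (0.0137) or 2 (0.0153) or CONV-Ern2-/- replicate 3 (0.0235). In that comparison 5 of 6 colonocyte markers were called higher and 3 of 6 goblet cell markers lower, and their part was not tested.

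Cx3cl1 (chr8:94772009-94782427, plus strand), the CX3CR1 ligand, had its highest mean in GF-WT at 2026 ± 442 and its lowest in CONV-WT at 1028 ± 501 (SD, n = 3). Means were 1607 ± 205 in COLONIZED-WT, 1816 ± 235 in GF-Ern2-/-, 1532 ± 95.3 in COLONIZED-Ern2-/- and 1307 ± 417 in CONV-Ern2-/-. The CONV-WT libraries, at 1428, 1190 and 466, lay below the GF-WT libraries, at 1575, 2046 and 2459. The difference of −0.99 (SE 0.43) was not called (adjusted p 0.0947 with DESeq2, 0.174 with edgeR). Without CONV-WT replicate 3 it was −0.63, and a fit that took in the log2 library total gave 0.19. Library totals ran from 19255177 to 23154481 in GF-WT and from 8198204 to 15877968 in CONV-WT, without overlap. That fit therefore cannot reliably separate depth from group, and no conclusion on the sign is drawn from it. CONV-WT replicate 3 was also the shallowest WT library. Its summed goblet cell markers were 65998, against 406837 in replicate 2 and 450098 in replicate 1. Without CONV-Ern2-/- replicate 1, at 1789, Cx3cl1 was called lower in CONV-Ern2-/- than in GF-Ern2-/- (−0.77, adjusted p 0.0068) and than in COLONIZED-Ern2-/- (−0.52, adjusted p 0.00444).

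Cxcl16 (chr11:70453983-70459984, minus strand), the CXCR6 ligand, had 12 to 87 counts per library. Its normalized counts in CONV-Ern2-/- were 25.1, 75.5 and 74.5, the highest group mean at 58.4 ± 28.8, and the lowest was 15.4 ± 5.14 in COLONIZED-WT (SD, n = 3). COLONIZED-Ern2-/- at 33.5, 26.1 and 32.1 lay above COLONIZED-WT at 12.1, 21.3 and 12.7 without overlap, and the difference of 0.99 (SE 0.42) was not called (adjusted p 0.136 with DESeq2). CONV-Ern2-/- against GF-Ern2-/- gave 1.21 (SE 0.58, adjusted p 0.210 with DESeq2), and −0.006 with the log2 library total in the fit. Of its 3021 exon bases 552 are shared with Zmynd15 on the other strand. The proteases that shed CXCL16 and CX3CL1, Adam10 (714 to 3237 normalized counts) and Adam17 (234 to 973), were present in all libraries and 0 of the 2 were called by DESeq2 in any comparison.

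The remaining members were at or near the limit of detection. Il33 (chr19:29925114-29960718, plus strand) had 0 to 24 counts, with 1 library at 0, and its fold changes lay between −0.91 and 0.66 with a lowest adjusted p of 0.501. Its COLONIZED-Ern2-/- libraries, at 16.4 to 18.0 normalized counts, lay above those of COLONIZED-WT, at 4.76 to 15.0. Tslp (chr18:32815383-32819797, plus strand) had 0 to 13 counts, with 0 in 4 libraries, and 3 or fewer in 10. Cxcl1 (chr5:90891241-90893115, plus strand) had 0 to 4 counts, with 0 in 6 libraries and 3 or fewer in 15. A count of 0 allows up to 0.130 CPM (counts scaled to an equal library total) in the deepest library and 0.511 in the shallowest. These limits come from 3 counts of the total and cover counting error only. DESeq2 gave an adjusted p to Tslp in 5 of 9 comparisons and to Cxcl1 in 1, none under 0.01, and edgeR tested neither. The Tslp ranges without overlap in CONV-Ern2-/- against COLONIZED-Ern2-/- (means of 0.741 and 4.70 normalized counts, unadjusted p 0.0952 with DESeq2) rest on a few counts. Fold changes are not given for them, by a minimum mean of 10 counts set after their values had been seen.

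Other chemokines were described from a list of 26 genes, of which 23 were tested in GF-Ern2-/- against GF-WT and 4 to 10 in the other comparisons of 2 groups. Ccl6, a CCR1 ligand, was the most abundant, at 6490, 7897 and 1952 normalized counts in CONV-WT and 493, 1015 and 643 in CONV-Ern2-/-. It fell by 2.92 (SE 0.52, adjusted p 3.88e-06 with DESeq2, 0.0919 with edgeR), and the log2 fold changes of CONV-Ern2-/- against COLONIZED-Ern2-/- and GF-Ern2-/-, also called, were −2.77 and −2.12. It rose by 1.02 in COLONIZED-WT against GF-WT. Goblet cell markers moved alongside: in CONV-Ern2-/- against CONV-WT 4 of 6 were called lower, with summed levels of 55747 to 69357 and 65998 to 450098. Of 6 colonocyte markers 2 were called higher there (Slc26a3 at 2.26 and Car4 at 1.86), with sums of 305068 to 418311 and 28994 to 293149 that did not overlap. Goblet cell markers were also called lower in CONV-Ern2-/- against COLONIZED-Ern2-/- (3 of 6) and against GF-Ern2-/- (2 of 6). Against COLONIZED-Ern2-/- 5 of 6 colonocyte markers were called higher, and against GF-Ern2-/- 2 of 4 tuft cell markers. The part of these lists in the result was not tested. Ccl9, another CCR1 ligand, rose by 2.15 in COLONIZED-WT against GF-WT (DESeq2 adjusted p 5.23e-12, edgeR 0.00644), the comparison in which 4 of 6 goblet and 4 of 4 tuft cell markers were called higher, as given above for Tnf and Tgfb1. Cxcl12, a stromal chemokine, was at 9.22 to 58.1 in GF-WT and at 1.43 to 2.94 in COLONIZED-WT, and at 19.1 to 76.1 in GF-Ern2-/- and at most 2.70 in COLONIZED-Ern2-/-. Its log2 fold changes there were −3.94 and −5.06 (DESeq2 adjusted p 2.15e-05 and 5.11e-05). The summed levels of 14 mesenchymal markers were 372 to 444 in GF-WT, 238 to 325 in COLONIZED-WT, 391 to 608 in GF-Ern2-/- and 246 to 335 in COLONIZED-Ern2-/-. Most of each sum was Pdgfrb, at 288 to 367 in GF-WT and 182 to 258 in COLONIZED-WT. Of the list, 0 of 7 tested were called in COLONIZED-WT against GF-WT and 1 of 9, Pdgfrb, was called lower in COLONIZED-Ern2-/- against GF-Ern2-/-. In the latter comparison the endothelial marker Pecam1 was called lower too (−2.24, DESeq2 adjusted p 0.000712). The part of these markers in the result was not tested.

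Receptors for the members' ligands were low, as listed for 17 genes. Ccr6 reached at most 7.02 normalized counts, Ccr9 13.8, Ccr10 5.01, Cxcr6 6.25, Cx3cr1 3.67 and the IL-33 receptor Il1rl1 6.27, and Cxcr2 was at 0 in all 18 libraries. Crlf2, the TSLP receptor, was at 20.9 to 60.2 and Il1rap, the shared IL-1 family co-receptor, at 53.0 to 245. Of the 17, 4 were tested in CONV-Ern2-/- against CONV-WT, where 2.89% of all genes were called. In CONV-Ern2-/- against COLONIZED-Ern2-/- 5 were tested, where 8.37% of all genes were called. Il18r1, a chain of the IL-18 receptor, was the 1 receptor called. At 21.9, 26.7 and 52.4 in CONV-Ern2-/- it was higher than in CONV-WT (2.83, 3.95 and 7.30) and in COLONIZED-Ern2-/- (6.41, 9.00 and 7.02). It rose by 2.90 and 2.13 (adjusted p 0.00401 and 0.00542 with DESeq2, 0.0996 and 0.0318 with edgeR). Colonocyte markers moved alongside, 2 of 6 called higher in the first comparison and 5 of 6 in the second, with sums of 305068 to 418311 in CONV-Ern2-/-, 28994 to 293149 in CONV-WT and 90823 to 168949 in COLONIZED-Ern2-/-. Of 6 goblet cell markers 4 and 3 were called lower. In the second comparison the mesenchymal markers Col3a1 (3.43) and Myh11 (3.78) and the endothelial marker Pecam1 (2.83) were also called higher, and the part of these lists was not tested. The first Il18r1 call was kept only without CONV-WT replicate 3, and the second only without CONV-Ern2-/- replicate 1. Il18rap, the other chain, was at 0 to 2.80.

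Of 21 regulators and inputs of epithelial cytokine genes, 4 of 20 tested were called in CONV-WT against GF-WT, beside 10.7% of all genes. Of these 1 was higher and 3 lower. In COLONIZED-WT against GF-WT 8 of 20 were called, 3 higher and 5 lower, beside 17.9% of all genes. Nfkbiz, a nuclear IkB protein, rose by 1.72 in CONV-WT against GF-WT (SE 0.27, adjusted p 1.22e-08 with DESeq2, 0.0163 with edgeR), from 355 to 425 normalized counts in GF-WT to 927 to 1605 in CONV-WT. In COLONIZED-WT it rose by 0.61 against GF-WT (adjusted p 0.00332 with DESeq2, 0.0206 with edgeR), a call kept in 2 of 6 fits without 1 library. Tnfaip3 and Relb, of the same list, fell there by 1.09 and 0.59 (DESeq2 adjusted p 2.24e-05 and 0.00318). These calls were kept in 6 and 2 of 6 such fits. Both were also called lower in COLONIZED-Ern2-/- against GF-Ern2-/-, by 1.04 and 0.84. Il22ra1, the IL-22 receptor, was at 1167 to 2149 in GF-WT, 542 to 855 in COLONIZED-WT and 498 to 650 in CONV-WT. It fell by 1.47 in CONV-WT, 1.22 in COLONIZED-WT and 0.79 in COLONIZED-Ern2-/- against their GF groups, and each call was kept in 6 of 6 fits without 1 library. In CONV-Ern2-/- it was at 1087 to 1222, above CONV-WT by 0.97 (adjusted p 6.73e-05 with DESeq2, 0.0743 with edgeR), a call kept in 1 of 6 such fits. In that comparison 2 of 6 colonocyte markers were called higher, with sums of 305068 to 418311 in CONV-Ern2-/- and 28994 to 293149 in CONV-WT. Of 6 goblet cell markers 4 were called lower. Ifngr1, the interferon gamma receptor, was at 3538 to 4937 in GF-WT and 1933 to 2494 in COLONIZED-WT, and fell by 0.92 (DESeq2 adjusted p 3.18e-06, edgeR 0.00983). It also fell by 1.33 in CONV-WT, which was lost without GF-WT replicate 2 (0.0219) or 3 (0.0293). Cell type markers called in the comparisons with GF groups are given above, and the part of any marker list in these results was not tested.

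Per kilobase of annotated exon, the members spanned more than 4 orders of magnitude. Mean CPM per kilobase over the 18 libraries were 1827 for Pigr, 66.1 for Il18, 26.0 for Cx3cl1, 1.22 for Ccl25, 0.854 for Ccl20, 0.677 for Cxcl16, 0.270 for Il33, 0.157 for Tslp and 0.0572 for Cxcl1. Libraries of Ccl25, Ccl20, Cxcl16 and Il33 overlapped on this scale.

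**Figure D4:**
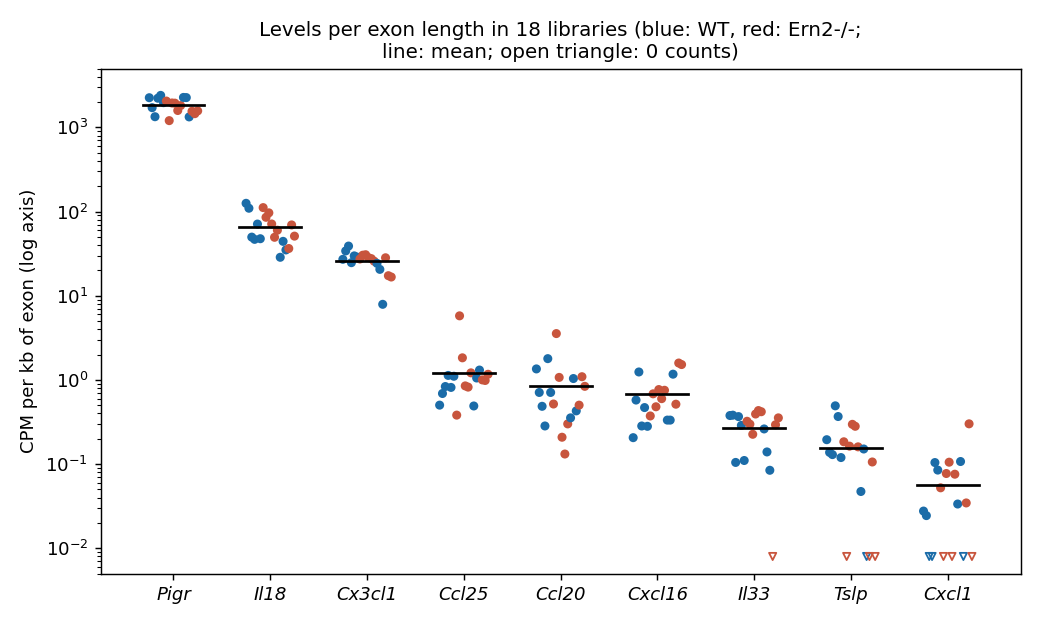
CPM per kilobase of exon (y axis, log scale) of the 9 members (x axis) in 18 libraries. Open triangles at the bottom mark libraries with 0 counts. Pigr stands at 1203 to 2400, Il18 at 28.6 to 125 and Cx3cl1 at 7.91 to 38.9, above all other members.

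The genes whose pattern over the 18 libraries was most like a member were listed by Pearson correlation of log2(normalized count + 1) over 10851 or 10852 genes, as a description that shares libraries and depth. For Il18 they were Tnni1 (0.904), Stambpl1 (0.888) and Nrap (0.885). For Cx3cl1 they included Leprot (0.961) and Sort1 (0.957). They were for Pigr St6galnac2 (0.872), Ephb3 (0.861) and Slc39a7 (0.858), and for Cxcl16 Rhof (0.923), Trim15 (0.916) and Itpk1 (0.908). By rank correlation 0 to 2 of the 3 genes remained for each of these members and Ccl25, Ccl20, Il33 and Tslp.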

How the data were processed

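The authors deposited raw read counts per gene symbol, neither normalized nor pooled, for 18 libraries. Per the labels and the study's methods, crypt RNA was made into stranded mRNA libraries (KAPA HyperPrep), sequenced as 75-cycle single-end reads and aligned with STAR in the VIPER pipeline. The submitters' processing notes name build mm10. Tool versions, the annotation and the strand setting are not given in the sources used here. Columns of no sample came to 0.

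DESeq2 1.42.0 in R 4.3.3 (Wald test, no shrinkage, default independent filtering), the tool of the study's methods, was run separately for 9 comparisons of 6 libraries and for 2 genotype-by-microbes interactions of 12. Genes with a Benjamini-Hochberg adjusted p under 0.01 over all genes were called. Both tools were tested on simulated data. The alternative test, edgeR 4.0.16, made far fewer calls than DESeq2 on the real counts. Independent filtering tuned to 0.01 had been run first and was replaced by the default after results were seen, with the same 3 member calls. Further alternatives were TMM size factors, a filter of at least 10 counts in at least 3 libraries, 1 fit of all 18 libraries, a replicate block, sex or library total as a covariate, and leaving out each library.

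Levels are counts divided by DESeq2 size factors over 18 libraries. Positions come from GENCODE M21 and promoter windows from RefSeq, both on GRCm38. Figures were drawn with matplotlib 3.10.9 in Python 3.11.15. The members and lists were chosen with earlier results of these data known. List genes given with a fold change were called in that comparison, and not every called gene was named. Genes not called were named for their levels alone. Likeness was computed among genes with a mean of at least 50 normalized counts. A gene of that likeness list is not reported here.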

Additional observations from a re-analysis of the deposited data

How the results depend on the processing

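Of 1800 alternative values of the named log2 fold changes, 1517 kept their direction and their side of the threshold, 205 lost a call, 7 gained one and 71 changed sign. The 71 sign changes were counted over the 7 members with a mean of at least 10 counts and would be 105 over all 9. The fold changes that changed sign were not called in the fits as reported. Filtering tuned to 0.01, chosen after seeing the data, TMM size factors and the filter on low counts changed no member call. The numbers of called members moved as follows, and the causes were not tested. In CONV-WT against GF-WT, where DESeq2 called 1 member, 0 were called with edgeR, with a sex covariate or with the log2 library total in the fit, and 0 to 1 without 1 library. Library totals of CONV-WT and GF-WT did not overlap, so the library total fit cannot reliably separate depth from group there. In COLONIZED-Ern2-/- against GF-Ern2-/-, where 2 were called, 0 were called with edgeR, 1 in 1 fit of all 18 libraries (Ccl20), and 0 to 2 without 1 library. In COLONIZED-WT against GF-WT, GF-Ern2-/- against GF-WT, CONV-Ern2-/- against GF-Ern2-/- and CONV-Ern2-/- against COLONIZED-Ern2-/-, where 0 were called, 0 to 1 were called without 1 library. Same-numbered libraries share only a number in the labels: the correlation of their deviations ran from −0.28 to 0.633, and 15 of 27 pairs were over 0.1. The same number was the best match in 16 of 27, and in 3 of 3 for COLONIZED-Ern2-/- against GF-Ern2-/- and CONV-WT against COLONIZED-WT, a hint from the data and not the design. With the replicate block 1 member, Il18 (adjusted p 0.00958), was called in COLONIZED-WT against GF-WT, and 1, Il18, in COLONIZED-Ern2-/- against GF-Ern2-/-, where Ccl20 had an adjusted p of 0.0227. Depth limits the CONV groups and every statement on Ccl20, Il33, Tslp and Cxcl1.

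With sex as a covariate, the log2 fold change of Pigr was 0.067 in GF-Ern2-/- against GF-WT and −0.036 in CONV-WT against GF-WT. That of Cxcl16 was 0.047 in CONV-WT against GF-WT. That of Cx3cl1 was −0.12 in CONV-Ern2-/- against CONV-WT. That of Il18 was −0.04 in GF-Ern2-/- against GF-WT. That of Il33 was −0.25 in CONV-Ern2-/- against CONV-WT, −0.41 in GF-Ern2-/- against GF-WT and 0.0012 in COLONIZED-WT against GF-WT. Library totals of CONV-WT did not overlap those of GF-WT or COLONIZED-WT. In these comparisons a fit with the library total cannot reliably separate depth from group, and its sign changes are given without a conclusion. With the log2 library total as a covariate, the log2 fold change of Pigr was 0.34 in CONV-WT against COLONIZED-WT and 0.0034 in CONV-Ern2-/- against COLONIZED-Ern2-/-. That of Ccl20 was −0.035 in COLONIZED-WT against GF-WT. That of Ccl25 was −0.20 in CONV-WT against GF-WT. That of Cxcl16 was 0.36 in GF-Ern2-/- against GF-WT, 0.38 in COLONIZED-WT against GF-WT, −0.006 in CONV-Ern2-/- against GF-Ern2-/-, −0.72 in CONV-WT against COLONIZED-WT and −0.20 in CONV-Ern2-/- against COLONIZED-Ern2-/-. That of Cx3cl1 was 0.19 in CONV-WT against GF-WT, 0.24 in CONV-WT against COLONIZED-WT and 0.25 in CONV-Ern2-/- against COLONIZED-Ern2-/-. That of Il33 was −1.83 in CONV-Ern2-/- against CONV-WT and 0.30 in CONV-WT against COLONIZED-WT. With the replicate block, the log2 fold change of Ccl20 was −0.084 in COLONIZED-WT against GF-WT. With TMM size factors, the log2 fold change of Il18 was 0.0032 in the COLONIZED interaction. Leaving out 1 library in turn, the log2 fold change of Pigr ran from −0.14 to 0.17 in GF-Ern2-/- against GF-WT, −0.043 to 0.31 in CONV-WT against GF-WT, −0.21 to 0.049 in COLONIZED-Ern2-/- against GF-Ern2-/-, −0.29 to 0.045 in CONV-WT against COLONIZED-WT and −0.13 to 0.020 in CONV-Ern2-/- against COLONIZED-Ern2-/-. For Ccl20 it ran from −0.16 to 1.62 in GF-Ern2-/- against GF-WT, −0.81 to 0.57 in COLONIZED-WT against GF-WT, −1.62 to 0.12 in CONV-Ern2-/- against GF-Ern2-/-, −1.26 to 0.32 in CONV-WT against COLONIZED-WT and −1.12 to 0.62 in the CONV interaction. For Ccl25 it ran from −0.059 to 0.56 in CONV-Ern2-/- against CONV-WT, −1.92 to 0.064 in CONV-Ern2-/- against GF-Ern2-/- and −0.40 to 0.22 in CONV-WT against COLONIZED-WT. For Cxcl16 it ran from −0.82 to 0.46 in GF-Ern2-/- against GF-WT, −1.11 to 0.59 in CONV-WT against GF-WT and −0.055 to 1.12 in CONV-WT against COLONIZED-WT. For Cx3cl1 it ran from −0.30 to 0.015 in GF-Ern2-/- against GF-WT and −0.085 to 0.24 in the COLONIZED interaction. For Il18 it ran from −0.20 to 0.31 in GF-Ern2-/- against GF-WT, −0.06 to 0.33 in COLONIZED-Ern2-/- against COLONIZED-WT, −0.29 to 0.16 in CONV-Ern2-/- against COLONIZED-Ern2-/- and −0.22 to 0.28 in the COLONIZED interaction. For Il33 it ran from −0.18 to 1.03 in CONV-Ern2-/- against CONV-WT, −0.34 to 0.31 in GF-Ern2-/- against GF-WT, −0.60 to 0.14 in COLONIZED-WT against GF-WT, −1.08 to 0.20 in CONV-Ern2-/- against GF-Ern2-/- and −0.35 to 0.99 in the CONV interaction.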
